A study of Homo sapiens with 33 samples.

Results

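The 49 genes described here are effectors of the interferon response, that is, genes whose products act against viruses or modify proteins once a cell has been exposed to interferon. They were taken from a fixed list of names, out of 19775 genes measured, and all 49 were measured. The list was chosen with earlier results of these data known, so the shares of all genes set beside its counts are a description. Each is represented by its brightest probe set, the one with the highest mean over all 33 arrays. The cells were Karpas422, a line from a diffuse large B cell lymphoma that the series title calls EZH2 mutant. They were given 5 µM EED226, which inhibits the histone methyltransferase complex PRC2 by binding its EED subunit, or the solvent DMSO, and were collected after 8 h and on days 1, 2, 3 and 6, times that the sample titles give in hours. A further group was collected at 0 h, and the labels do not say how it was handled. Every group held 3 arrays, described as biological triplicates, and all groups shared the line and its medium. The values are log2 expression levels from RMA, which subtracts background, gives all arrays one distribution and combines probes into probe sets.

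Type I and type III interferons bind cell surface receptors, whose kinases JAK1 and TYK2 signal to the nucleus. There a transcription factor complex, ISGF3, binds the interferon-stimulated response element in the promoters of such genes. The products then block viral RNA translation, degrade RNA, deplete nucleotides, tag proteins with ISG15 or hold viral particles at membranes, and many of the genes are expressed at a low level in cells that have met no virus. PRC2 places methyl groups on lysine 27 of histone H3, a mark of silenced chromatin.

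Of the 49 genes, 39 had promoter windows in a RefSeq table of the human assembly GRCh38.p14, each covering 250 bases before and 50 bases after the gene start. The core of the response element, GAAANNGAA on either strand, occurred in the windows of 29 of these 39 genes (74.4%), against 9.86% of 27305 genes in the table (8.11% of 35116 windows). The gamma-activated site TTCNNNGAA, the element of type II interferon, occurred in 11 of the 39 (28.2%), against 9.38% of all genes (7.66% of windows). A match is a match of letters and no measure of binding. The stretches below show the core, in capitals, for genes of different behaviour: large changes with EED226 (IFI27, RSAD2, RTP4), a change with EED226 and none past the test in DMSO (ISG20), changes of like size in both (IFIT1, IFIT3, ISG15) and no change that passed the test (HERC5). They are read 5′ to 3′ on the plus strand of the assembly, on which these genes lie, and a capital at an edge belongs to a match that runs past it.
IFI27, chr14:94110615-94110674, plus strand: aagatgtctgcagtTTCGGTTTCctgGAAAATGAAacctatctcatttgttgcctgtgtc
RSAD2, chr2:6865780-6865839, plus strand: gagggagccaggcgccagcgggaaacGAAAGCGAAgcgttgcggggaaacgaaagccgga
RTP4, chr3:187368341-187368400, plus strand: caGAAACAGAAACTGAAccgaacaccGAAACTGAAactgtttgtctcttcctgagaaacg
ISG20, chr15:88638921-88638980, plus strand: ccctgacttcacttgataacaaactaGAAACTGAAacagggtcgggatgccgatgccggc
IFIT1, chr10:89392495-89392554, plus strand: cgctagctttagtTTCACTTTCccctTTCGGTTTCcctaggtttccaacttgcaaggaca
IFIT3, chr10:89327850-89327909, plus strand: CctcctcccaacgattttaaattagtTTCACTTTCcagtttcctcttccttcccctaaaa
ISG15, chr1:1013370-1013429, plus strand: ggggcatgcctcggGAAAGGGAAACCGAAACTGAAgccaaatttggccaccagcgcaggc
HERC5, chr4:88457020-88457079, plus strand: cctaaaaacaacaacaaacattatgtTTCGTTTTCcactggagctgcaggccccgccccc
The core was thus present in promoters of genes that rose in both settings, of genes that on day 6 passed the test with EED226 but not in DMSO, and of HERC5 and GBP4, which did not pass it. The 10 matched genes without it were BATF2, HERC6, IFI35, OAS1, SAMD9L, SAMHD1, SP100, SP110, UBE2L6 and XAF1, all of which rose with EED226. The RSAD2 stretch also lies in the window of CMPK2, which is read from the opposite strand.

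Array medians lay between 4.06 and 4.18, and 5 of the 49 genes lay below the lowest array median in the DMSO arrays on day 6, close to background. All 8 measured B cell markers stood above the array medians in every group, while 7 of 9 myeloid markers stood below them, as did 3 of 5 plasmacytoid dendritic cell markers (CLEC4C, GZMB and NRP1); the other 2 of these, LILRA4 and IL3RA, stood above, with 5.17 and 4.61 on EED226 arrays and 5.03 and 5.00 on DMSO arrays on day 6. The summed level of the 8 B cell markers was 85.4 to 86.4 on EED226 arrays on day 6 and 79.7 to 82.0 on DMSO arrays. That of 9 stromal, endothelial and epithelial markers was 48.8 to 49.7 and 44.9 to 47.8, with 5 of the 9 above the array medians in every group and COL3A1, VWF, CDH5 and EPCAM below them. In that list PECAM1, an adhesion protein of endothelial and blood cells, averaged 9.50 and 5.34 and DCN 13.21 and 12.63, and the median difference of the list was -0.10. The myeloid gene LYZ differed by 2.28 ± 0.20, and 5 of the 9 myeloid markers were lower with EED226. The summed level of 10 T and NK cell markers was 46.2 to 47.5 on EED226 arrays and 48.7 to 51.2 on DMSO arrays. CD3D, CD3E, CD3G, CD4 and CD5 stood above the array medians in every group, and CD2, CD8A, NKG7 and KLRD1 below them. On day 6 CD3G averaged 9.80 on EED226 arrays and 10.13 on DMSO arrays, and CD3D 8.09 and 9.04. The part of these differences in the results was not tested. Within groups the correlation between arrays was at least 0.994, except DMSO day 6 replicate 3, where it was down to 0.986. On this array 41 of the 49 genes had the lowest of the 3 DMSO values on day 6. The upper quartile of all its probe sets was 6.10, against 6.53 and 6.55 on the others of its group. The share of all genes that were lowest on it was not counted. Some of the counts, medians and differences that rest on it are also given without it. On day 6 the 3′ minus 5′ difference of the ACTB control probe sets, a sign of RNA integrity, averaged 3.91 log2 units on EED226 arrays and 3.14 on DMSO arrays, and its part in the results was not tested. The highest value on any array lay between 13.92 and 14.01, and IFITM1, ISG15, IFI6 and IFI27 came within 1 log2 unit of it in EED226 cells on day 6. In these bulk samples more RNA per cell and more cells expressing a gene cannot be told apart.

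The interferon effectors rose in 2 settings: in DMSO culture over the 0 h cells, and further with EED226 over DMSO. The median of the 49 levels was 11.21, 11.22 and 11.18 on the EED226 arrays on day 6, 8.82, 8.85 and 8.63 on the DMSO arrays of that time, and 6.97, 7.22 and 7.03 on the 0 h arrays. None of these 3 sets of arrays overlapped. In DMSO the 3 medians were 8.58, 8.46 and 8.72 on day 2, which is most of the way to the DMSO values of day 6. With EED226 they were 9.78, 9.77 and 10.02 on day 2 and 10.84, 10.64 and 10.93 on day 3.

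**Figure D1:**
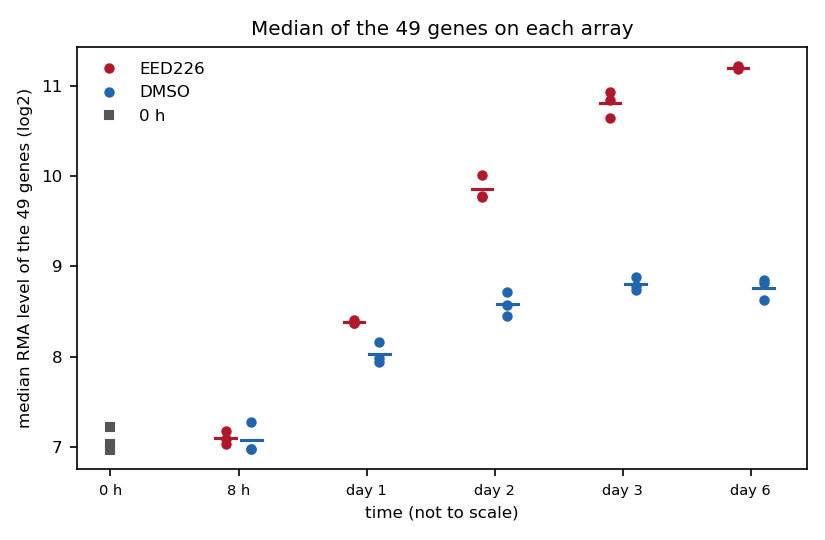
Median RMA level (log2) of the 49 genes on each array against time (not to scale); points are arrays, bars are group means, with EED226 in red, DMSO in blue and 0 h in grey. EED226 arrays separate from DMSO arrays on day 1, where they lie between 8.37 and 8.41 against 7.94 to 8.17, and reach 11.18 to 11.22 on day 6, while DMSO arrays change little after day 2.

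In vehicle culture, 0 of the 49 genes passed the test over 0 h at 8 h (limma, Benjamini-Hochberg adjusted over all genes), 0% of all genes did, and no member had an unadjusted p under 0.05. On day 1, 12 genes were higher, against 0.157% of all genes, and on day 2, 32 were, against 0.713%. On day 3, 38 were higher (2.11% of all genes) and on day 6, 36 were (0.829% of all genes). No member was lower in DMSO at any of these times past the test. These comparisons share the 3 arrays of 0 h, among which replicate 2 was the highest for 30 of the 49 genes. Set the other way round, the 12 members made up 38.7% of the 31 genes that were higher in DMSO on day 1, the 32 members 22.7% of 141 genes on day 2, and the 36 members 22% of 164 genes on day 6. The median difference over the members was 0.36 log2 units on day 1, 1.01 on day 2, 1.12 on day 3 and 1.05 on day 6, and that over all genes lay between -0.02 and 0.00 at these times. The call count on day 1 was 7 without 0 h replicate 1, 0 h replicate 2 or DMSO day 1 replicate 3. With the spread taken only from the arrays compared, the counts were 6 on day 1 and 11 on day 6.

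In DMSO little further rise was measured after day 2. Between days 2 and 6 in DMSO, a comparison added after the values were seen, 0 members were higher and 0 lower by limma, as were 0% and 0% of all genes. At an unadjusted p under 0.05, 4 members were higher and 0 lower, and the alternatives run also gave 0 calls. The median difference over members was 0.08 log2 units, with members between -0.14 and 0.38. It was 0.04 with the mean of probe sets and 0.17 with array weights. DMSO day 6 replicate 3, the lowest of its group for 41 of the 49 genes, enters this comparison. Without it the median difference between DMSO on day 6 and 0 h was 1.14. The absence of calls does not show that the levels were equal.

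With EED226, 0 members differed from DMSO at 8 h, as did 0% of all genes, and none of the members had an unadjusted p under 0.05. On day 1 IFIT1 alone was higher, against 0.834% of all genes, and 22 members were higher at an unadjusted p under 0.05. With the replicate number as a block, which the check of paired numbers allows at this time, 2 members were called, IFIT1 and SAMD9L. On day 2, 41 members were higher, against 6.76% of all genes, on day 3, 45 were, against 11.7%, and on day 6, 45 were, against 23.7%. Of these, 25, 37 and 43 differed by at least 2-fold. LY6E was lower on day 6, against 27.3% of all genes lower. The median difference over the members was 0.04 log2 units at 8 h, 0.27 on day 1, 1.04 on day 2, 1.56 on day 3 and 1.94 on day 6, and that over all genes was -0.11 on day 6 and -0.03 or nearer 0 before. Without DMSO day 6 replicate 3 the count on day 6 was again 45 and the median 1.94.

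Most members passed the test for the first time together. IFIT1 did so on day 1, 40 members on day 2, and 4 on day 3, these being ISG15, GBP1, BATF2 and APOL6. LY6E, GBP2, GBP4 and HERC5 were not higher at any time. The difference was largest on day 6 for 39 members, and on day 3 for IFIT1, IFIT3, OAS1, OAS2, DDX60, SP110 and HERC5. The day 1 call of IFIT1 was lost when any 1 of the 6 arrays compared was left out (adjusted p between 0.0686 and 0.273). The day 3 call of ISG15 was also lost without any 1 of its 6 arrays (adjusted p between 0.0557 and 0.0816), and that of BATF2 without DMSO day 3 replicate 1 or 3 or EED226 day 3 replicate 2 (adjusted p between 0.113 and 0.231).

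**Figure D2:**
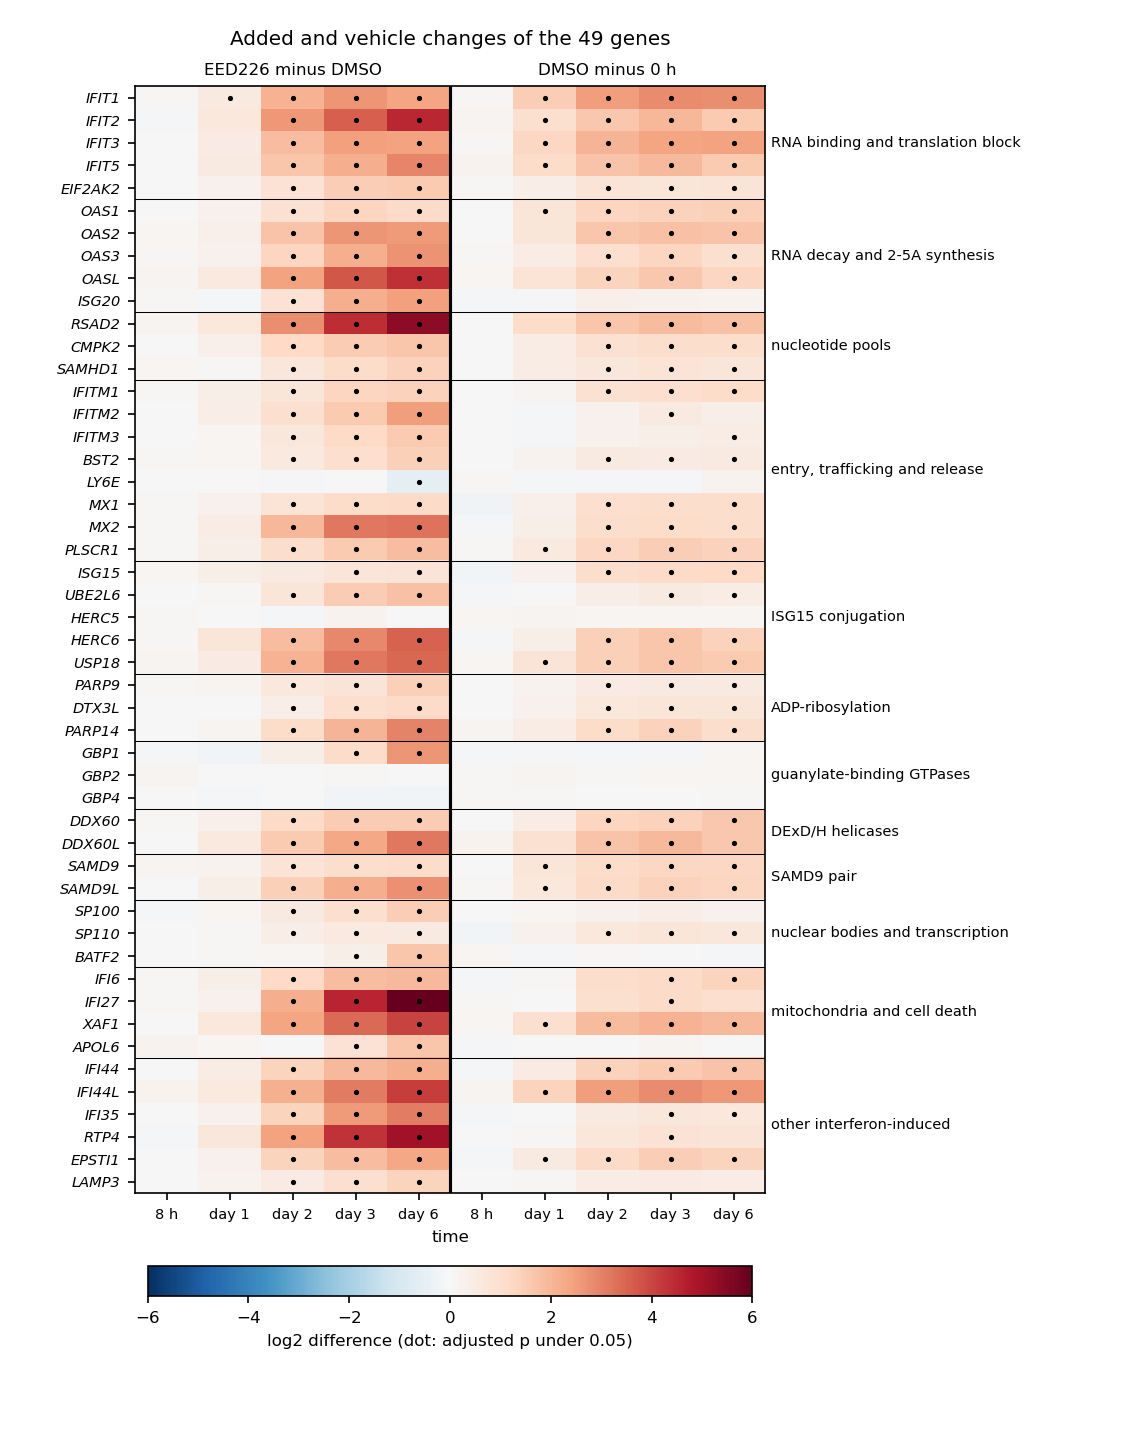
Log2 differences of the 49 genes, grouped by role, for EED226 minus DMSO (left) and DMSO minus 0 h (right) at each time; red is higher, blue lower, and a dot marks an adjusted p under 0.05. Dots fill the left panel from day 2 on for 41 genes, and the right panel from day 2 on for 32, with little further change to the right.

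The IFIT proteins bind viral RNA and block its translation, and EIF2AK2 encodes PKR, a kinase that halts translation on double-stranded RNA. All 5 genes of this group rose with EED226 and all 5 rose in DMSO on day 6. IFIT1 stood at 11.91, 11.73 and 11.71 in EED226 cells on day 6, at 9.48, 9.53 and 9.23 in DMSO cells, and at 6.80, 6.55 and 6.49 at 0 h. The 3 sets did not overlap, and the steps were of like size: 2.37 ± 0.14 log2 units (SE, n = 3) added by EED226 and 2.80 ± 0.14 in DMSO over 0 h. IFIT1 was also the 1 member called on day 1, although HERC6, RTP4, IFIT2, RSAD2, XAF1, DDX60L, OASL and IFI44L had larger differences, none of which passed. On that day its levels were 8.52, 8.52 and 8.90 with EED226 and 8.05, 7.98 and 8.24 with DMSO, a difference of 0.56 ± 0.14 (limma adjusted p = 0.045). Over time its EED226 mean was 8.64 on day 1, 11.19 on day 2, 12.10 on day 3 and 11.79 on day 6, and its DMSO mean was 8.09, 9.10, 9.44 and 9.41 at the same times.

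IFIT3, which binds and stabilises IFIT1, followed almost the same course, with 11.91, 11.84 and 11.79 in EED226 cells on day 6, 9.42, 9.58 and 9.26 in DMSO cells and 6.97, 7.05 and 7.03 at 0 h. Its differences were 2.43 ± 0.14 with EED226 and 2.41 ± 0.14 in DMSO. IFIT2, another RNA-binding protein, gained more from EED226 than in DMSO: 11.46, 11.17 and 11.25 in EED226 cells, 6.79, 7.09 and 6.47 in DMSO cells, and 5.24, 4.90 and 5.49 at 0 h. Here EED226 added 4.51 ± 0.18, a 22.8-fold change, and DMSO 1.57 ± 0.18. The 0 h and DMSO arrays of IFIT2 did not overlap either. IFIT5 gained 2.93 ± 0.15 with EED226 and 1.56 ± 0.15 in DMSO, and EIF2AK2 1.56 ± 0.12 and 0.78 ± 0.12.

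The OAS enzymes make the second messenger that activates RNase L, OASL is a relative that acts on RIG-I signalling, and ISG20 is an exonuclease that degrades RNA. All 5 rose with EED226 on day 6 and 4 rose in DMSO. OASL stood at 10.48, 10.42 and 10.26 in EED226 cells, at 6.28, 6.36 and 5.42 in DMSO cells, and at 4.47, 4.95 and 4.79 at 0 h, with DMSO replicate 3 the lowest of its group but above all 0 h arrays. EED226 added 4.36 ± 0.18 to it and DMSO 1.28 ± 0.18. ISG20 showed the added rise with little vehicle change: 11.67, 11.72 and 11.73 in EED226 cells and 9.24, 9.40 and 9.08 in DMSO cells, where the 0 h arrays held 8.87, 9.21 and 8.96 and overlapped the DMSO arrays. Its differences were 2.47 ± 0.11 and 0.23 ± 0.11, the second not past the test (adjusted p = 0.326). The 3 OAS genes lie side by side on chromosome 12. OAS1 held 10.56, 10.58 and 10.75 in EED226 cells, 9.52, 9.48 and 9.47 in DMSO cells and 7.91, 8.18 and 8.08 at 0 h, gains of 1.14 ± 0.11 and 1.43 ± 0.11. OAS3 held 10.53, 10.50 and 10.41 in EED226 cells, 8.15, 7.95 and 7.31 in DMSO cells and 6.91, 7.03 and 6.55 at 0 h, gains of 2.67 ± 0.16 and 0.97 ± 0.16. OAS2 gained 2.53 ± 0.16 and 1.70 ± 0.16.

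RSAD2 encodes viperin, which makes a chain-terminating nucleotide, CMPK2 is a mitochondrial nucleotide kinase next to it, and SAMHD1 degrades deoxynucleotides. All 3 rose in both settings. RSAD2 had 12.88, 12.60 and 12.74 in EED226 cells on day 6, 7.58, 7.73 and 6.80 in DMSO cells and 5.59, 5.78 and 5.53 at 0 h. EED226 added 5.37 ± 0.24 log2 units, a 41.3-fold change, to a vehicle rise of 1.74 ± 0.24. The RSAD2 mean with EED226 was 7.35 on day 1, 10.06 on day 2, 11.99 on day 3 and 12.74 on day 6, while in DMSO it was 6.72, 7.28, 7.54 and 7.37 at those times. CMPK2 stood at 12.56, 12.39 and 12.43 in EED226 cells, at 10.85, 10.88 and 10.71 in DMSO cells and at 9.92, 9.68 and 9.70 at 0 h, gains of 1.65 ± 0.11 and 1.05 ± 0.11, and SAMHD1 gained 1.39 ± 0.10 and 0.70 ± 0.10.

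**Figure D3:**
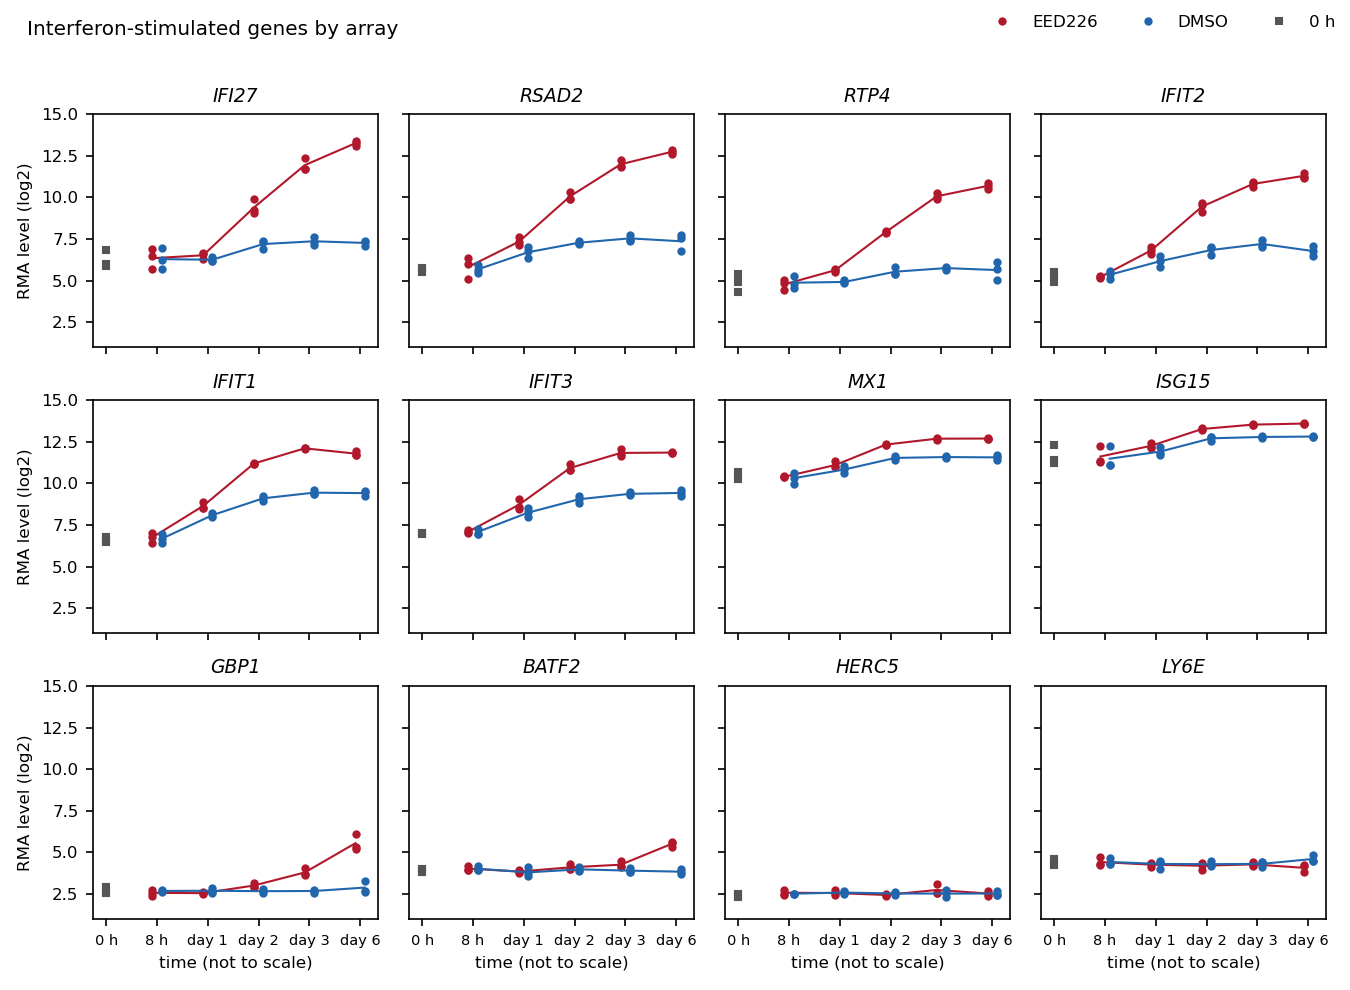
RMA levels (log2) of 12 genes on each array against time (not to scale), with EED226 in red, DMSO in blue and 0 h in grey; lines join group means. IFI27, RSAD2, RTP4 and IFIT2 show EED226 arrays climbing to between 10.52 and 13.39 over a lower DMSO course, IFIT1, IFIT3, MX1 and ISG15 show both courses rising, GBP1 and BATF2 rise late, and HERC5 and LY6E stay low.

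Among proteins that act on entry, trafficking and release, 7 of 8 genes rose with EED226 on day 6, 1 fell, and 6 rose in DMSO. The IFITM proteins block membrane fusion, BST2 (tetherin) holds budding particles at the surface, PLSCR1 is a lipid scramblase, and MX1 and MX2 are dynamin-like GTPases against viral nucleocapsids. MX2 stood at 11.12, 11.20 and 11.10 in EED226 cells, at 7.98, 8.0 and 7.62 in DMSO cells and at 6.79, 7.01 and 6.61 at 0 h, so that EED226 added 3.27 ± 0.14 and DMSO 1.06 ± 0.14. Its neighbour MX1 stood at 12.68, 12.72 and 12.67 in EED226 cells, at 11.69, 11.61 and 11.38 in DMSO cells and, already high, at 10.58, 10.66 and 10.29 at 0 h. The sets did not overlap, and the gains were 1.13 ± 0.12 with EED226 and 1.05 ± 0.12 in DMSO. The IFITM genes lie side by side. IFITM2 held 11.21, 11.24 and 11.23 in EED226 cells, 8.82, 8.72 and 8.63 in DMSO cells and 8.24, 8.53 and 8.29 at 0 h. Its difference was 2.50 ± 0.14 with EED226 and 0.37 ± 0.14 in DMSO, the second not past the test (adjusted p = 0.173) although the arrays did not overlap. On day 3 the DMSO difference had passed, with 0.55 ± 0.14 (adjusted p = 0.0226). IFITM3 gained 1.59 ± 0.12 and 0.45 ± 0.12, and IFITM1 gained 1.39 ± 0.18 and 1.10 ± 0.18. BST2 gained 1.44 ± 0.12 and 0.53 ± 0.12, and PLSCR1 1.85 ± 0.10 and 1.40 ± 0.10.

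LY6E, a membrane-anchored protein that limits coronavirus entry, was the 1 member that fell. It was dim, with 3.85, 4.23 and 4.16 in EED226 cells, 4.47, 4.49 and 4.86 in DMSO cells and 4.61, 4.30 and 4.23 at 0 h. The EED226 arrays lay below the DMSO arrays, with a difference of -0.53 ± 0.16 (limma adjusted p = 0.0063), but overlapped the 0 h arrays. Without DMSO day 6 replicate 3 the difference was -0.40 (adjusted p = 0.0557), and without EED226 day 6 replicate 1 it was -0.41 (adjusted p = 0.0518).

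ISG15 is a ubiquitin-like protein, UBE2L6 is its conjugating enzyme, HERC5 its ligase in humans, HERC6 a related ligase, and USP18 removes ISG15 and dampens receptor signalling. All but HERC5 rose with EED226 on day 6 and in DMSO. HERC6 had 10.67, 10.51 and 10.41 in EED226 cells, 7.24, 7.30 and 6.48 in DMSO cells and 5.63, 6.04 and 5.22 at 0 h, gains of 3.52 ± 0.26 and 1.38 ± 0.26. USP18 gained 3.44 ± 0.16 and 1.56 ± 0.16, and UBE2L6 1.74 ± 0.11 and 0.44 ± 0.11. ISG15 held 13.58, 13.62 and 13.57 in EED226 cells, 12.85, 12.81 and 12.78 in DMSO cells, and 11.39, 12.31 and 11.19 at 0 h, gains of 0.78 ± 0.25 with EED226 and 1.18 ± 0.25 in DMSO. The DMSO gain no longer passed without 0 h replicate 1 (adjusted p = 0.0896) or 0 h replicate 3 (adjusted p = 0.0685), while 0 h replicate 2 was the highest of its group. HERC5, next to HERC6 on chromosome 4, stayed dim at 2.71, 2.53 and 2.37 with EED226, 2.44, 2.48 and 2.69 with DMSO and 2.33, 2.42 and 2.53 at 0 h. The groups overlapped, and its difference on day 6 was 0.00 (95% interval -0.26 to 0.26).

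PARP9 and DTX3L form an ADP-ribosylating ubiquitin ligase pair and share a promoter region head to head, and PARP14 is a further ADP-ribosyltransferase. All 3 rose in both settings. PARP14 had 9.65, 9.73 and 9.69 in EED226 cells, 6.97, 6.97 and 6.24 in DMSO cells and 5.70, 5.61 and 5.77 at 0 h, gains of 2.96 ± 0.16 and 1.03 ± 0.16. The pair moved less: PARP9 gained 1.45 ± 0.09 and 0.55 ± 0.09, and DTX3L 1.15 ± 0.09 and 0.73 ± 0.09.

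Guanylate-binding GTPases attack membranes that enclose pathogens and are known for their response to interferon gamma. GBP1 rose late with EED226: 6.11, 5.33 and 5.24 in EED226 cells on day 6, against 2.70, 2.65 and 3.32 in DMSO cells and 2.77, 2.91 and 2.59 at 0 h. Its EED226 mean was 2.56 on day 1, 3.02 on day 2, 3.80 on day 3 and 5.56 on day 6, and its DMSO mean was between 2.68 and 2.89 from 8 h on. The difference was 0.34 ± 0.17 on day 2 (adjusted p = 0.27), 1.11 ± 0.17 on day 3 and 2.67 ± 0.17 on day 6, while that in DMSO over 0 h was 0.13 ± 0.17. Dimmer probe sets of GBP1 gave day 6 differences of 4.17, 3.49 and 0.05, so the size depends on the probe set. GBP2 and GBP4 were dim in all groups. GBP2 had 2.35, 2.45 and 2.58 in EED226 cells, against 2.50, 2.53 and 2.36 in DMSO cells and 2.20, 2.39 and 2.50 at 0 h, a difference of -0.01 (95% interval -0.19 to 0.18). GBP4 had 2.90, 2.87 and 3.01 in EED226 cells, 3.12, 3.09 and 3.04 in DMSO cells and 2.88, 3.09 and 3.03 at 0 h, a difference of -0.16 (95% interval -0.35 to 0.04).

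DDX60 and DDX60L are neighbouring helicase-like genes, and SAMD9 and SAMD9L are neighbouring genes whose products restrict translation and growth. All 4 rose in both settings, and in each pair the second gained more with EED226. DDX60L had 10.43, 10.56 and 10.38 in EED226 cells, 7.52, 7.66 and 6.66 in DMSO cells and 5.73, 5.70 and 5.61 at 0 h. EED226 added 3.18 ± 0.23 to DDX60L and 1.52 ± 0.17 to DDX60, whose vehicle gains were both 1.60. SAMD9L had 11.44, 11.48 and 11.44 in EED226 cells, 8.74, 8.85 and 8.50 in DMSO cells and 7.34, 7.38 and 7.56 at 0 h. EED226 added 2.76 ± 0.09 to SAMD9L and 1.10 ± 0.14 to SAMD9, and the vehicle gains were 1.27 ± 0.09 and 1.22 ± 0.14. Differences between neighbouring genes, here and among the OAS, MX and IFITM genes, were not tested.

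SP100 and SP110 are nuclear body proteins and BATF2 is a leucine zipper factor that works with IRF1. With EED226 all 3 rose on day 6, and in DMSO SP110 alone passed the test. SP110 gained 0.52 ± 0.08 with EED226 and 0.66 ± 0.08 in DMSO, and SP100 1.46 ± 0.14 and 0.27 ± 0.14. BATF2 had 5.35, 5.64 and 5.56 in EED226 cells on day 6, against 3.86, 3.99 and 3.69 in DMSO cells and 3.84, 3.84 and 4.03 at 0 h, where the last 2 groups overlapped. Its difference with EED226 was 0.36 ± 0.12 on day 3 and 1.67 ± 0.12 on day 6.

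IFI6 and IFI27 encode small mitochondrial proteins, XAF1 is a pro-apoptotic partner of XIAP, and APOL6 is an apolipoprotein L with a cell death domain. All 4 rose with EED226 on day 6, and IFI6 and XAF1 also rose in DMSO. IFI27 had the largest gain of the 49. With EED226 it stood at 6.47, 6.89 and 5.68 at 8 h, at 6.33, 6.66 and 6.59 on day 1, at 9.22, 9.09 and 9.88 on day 2, at 11.70, 11.72 and 12.39 on day 3 and at 13.12, 13.28 and 13.39 on day 6. With DMSO it stood at 6.23, 6.95 and 5.70 at 8 h, at 6.17, 6.41 and 6.20 on day 1, at 7.38, 6.91 and 7.31 on day 2, at 7.33, 7.17 and 7.61 on day 3 and at 7.41, 7.31 and 7.08 on day 6, and at 0 h the arrays held 6.00, 6.82 and 5.89. The treated and vehicle arrays overlapped up to day 1 and were apart from day 2 on. The difference was 2.20 ± 0.29 on day 2, 4.57 ± 0.29 on day 3 and 5.99 ± 0.29 on day 6, a 63.7-fold change, while the vehicle change on day 6, 1.03 ± 0.29, did not pass the test (adjusted p = 0.0614), although that on day 3, 1.13 ± 0.29, did (adjusted p = 0.0244). XAF1 stood at 11.96, 12.20 and 11.76 in EED226 cells, at 8.13, 8.22 and 7.36 in DMSO cells and at 6.01, 5.98 and 5.93 at 0 h, gains of 4.07 ± 0.20 and 1.93 ± 0.20. IFI6 gained 1.94 ± 0.29 and 1.32 ± 0.29. APOL6 averaged 5.80 ± 0.07 in EED226 cells, 4.12 ± 0.02 in DMSO cells and 4.08 ± 0.15 at 0 h (SD, n = 3 each), differences of 1.68 ± 0.14 and 0.04 ± 0.14, the second not past the test.

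The remaining 6 genes have other or less settled roles: RTP4 is a chaperone of G protein-coupled receptors, IFI35 forms complexes with NMI, LAMP3 is a lysosomal protein, and IFI44, IFI44L and EPSTI1 are interferon-induced proteins. All 6 rose with EED226 on day 6 and 4 rose in DMSO. RTP4 had 10.67, 10.89 and 10.52 in EED226 cells, 5.73, 6.13 and 5.06 in DMSO cells and 4.92, 5.39 and 4.33 at 0 h, with DMSO and 0 h arrays overlapping. EED226 added 5.05 ± 0.23, a 33.2-fold change, and the vehicle change was 0.76 ± 0.23 (adjusted p = 0.0789), after 0.88 ± 0.23 on day 3 (adjusted p = 0.0264). IFI44L had 11.51, 11.53 and 11.49 in EED226 cells, 7.63, 7.61 and 6.89 in DMSO cells and 4.88, 4.75 and 4.68 at 0 h, gains of 4.13 ± 0.17 and 2.61 ± 0.17. IFI35 gained 3.07 ± 0.14 and 0.64 ± 0.14, EPSTI1 2.31 ± 0.10 and 1.35 ± 0.10, IFI44 2.17 ± 0.15 and 1.73 ± 0.15, and LAMP3 1.33 ± 0.14 and 0.45 ± 0.14, the last not past the test.

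The added change was then set against the vehicle change gene by gene, as EED226 minus DMSO less DMSO minus 0 h. The DMSO arrays enter both changes, so an error in them raises one and lowers the other, and no correlation between the changes is given. On day 1, 0 members had an added change larger than the vehicle change (0.0657% of all genes) and 0 a smaller one (0.00506% of all genes), and at an unadjusted p under 0.05 no member was larger and 7 were smaller. The median of the difference was -0.17. On day 2 MX2 (0.94 ± 0.23, adjusted p = 0.0359) and RTP4 (1.73 ± 0.39, adjusted p = 0.0176) passed, against 1.26% of all genes, and the median was 0.05. On day 3, 17 members passed, against 4.38%, with a median of 0.50. On day 6, 34 members passed, against 18.7%, with a median of 0.95, and LY6E was the 1 with a smaller added change, against 14.6%. No member had an unadjusted p under 0.05 at 8 h.

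On day 6, 3 kinds were set out after the values were seen, and they do not take in all members. Outside them lie members with a vehicle rise and a larger added rise, such as MX2 and USP18. LY6E, HERC5, GBP2 and GBP4, which were not higher with EED226, lie outside them too. In the first the added change exceeded the vehicle change by the most: 4.96 ± 0.49 for IFI27, 4.29 ± 0.39 for RTP4, 3.63 ± 0.41 for RSAD2, 3.08 ± 0.32 for OASL and 2.94 ± 0.32 for IFIT2. For each of these genes DMSO day 6 replicate 3 was the lowest of its group. A low DMSO value enlarges this excess, and the sizes without that array are not given. In the second the measured vehicle change was near 0 and the added change stood alone, as in GBP1, ISG20, BATF2 and APOL6. At 0 h and in DMSO on day 6, GBP1 and BATF2 lay below the array medians and APOL6 close to them. A vehicle change in these dim genes may therefore not be measurable, while ISG20 was bright. In the third both were present and their difference did not pass the test: -0.43 ± 0.24 for IFIT1 (95% interval -0.92 to 0.06), 0.02 ± 0.25 for IFIT3 (-0.49 to 0.53), 0.08 ± 0.22 for MX1 (-0.36 to 0.53), -0.40 ± 0.43 for ISG15 (-1.29 to 0.49), -0.29 ± 0.19 for OAS1 (-0.68 to 0.11), -0.07 ± 0.30 for DDX60 (-0.68 to 0.54), -0.12 ± 0.24 for SAMD9 (-0.61 to 0.36) and -0.14 ± 0.14 for SP110 (-0.44 to 0.15). IFITM1 (0.29 ± 0.32), IFI6 (0.63 ± 0.50) and IFI44 (0.44 ± 0.26) did not pass either, with intervals that reach 0.94, 1.65 and 0.97. These intervals do not show that the 2 changes were equal. ISG15, IFITM1 and IFI6 came within 1 log2 unit of the highest array value in EED226 cells on day 6. Their added change may be compressed there, which was not tested. Dimmer probe sets of some of these genes gave other sizes, listed here as added and vehicle change. They were 3.81 and 1.89 for IFI44, 2.71 and 1.98 for IFIT3, 1.89 and 1.43 for OAS1, and 1.24 and 1.29 for SAMD9. For SP110 they were 1.79 and 0.79, 1.77 and 0.74, 0.73 and 0.52, and 0.60 and 0.65. Membership of the third kind thus depends on the probe set. The same holds for some of the 34 members whose added change was larger. A dimmer probe set of EIF2AK2 gave 0.54 and 0.59, and a dimmer probe set of SAMHD1 gave 0.53 and 0.54. The other dimmer probe sets of EIF2AK2 and SAMHD1 gave a larger added than vehicle change. The gaps in all these probe sets were not tested. Without DMSO day 6 replicate 3 the count of 34 became 28, as OAS2, CMPK2, PLSCR1, DTX3L, DDX60L and LAMP3 no longer passed, LY6E also no longer passed (-0.50, adjusted p = 0.258), and the median was 0.73.

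**Figure D4:**
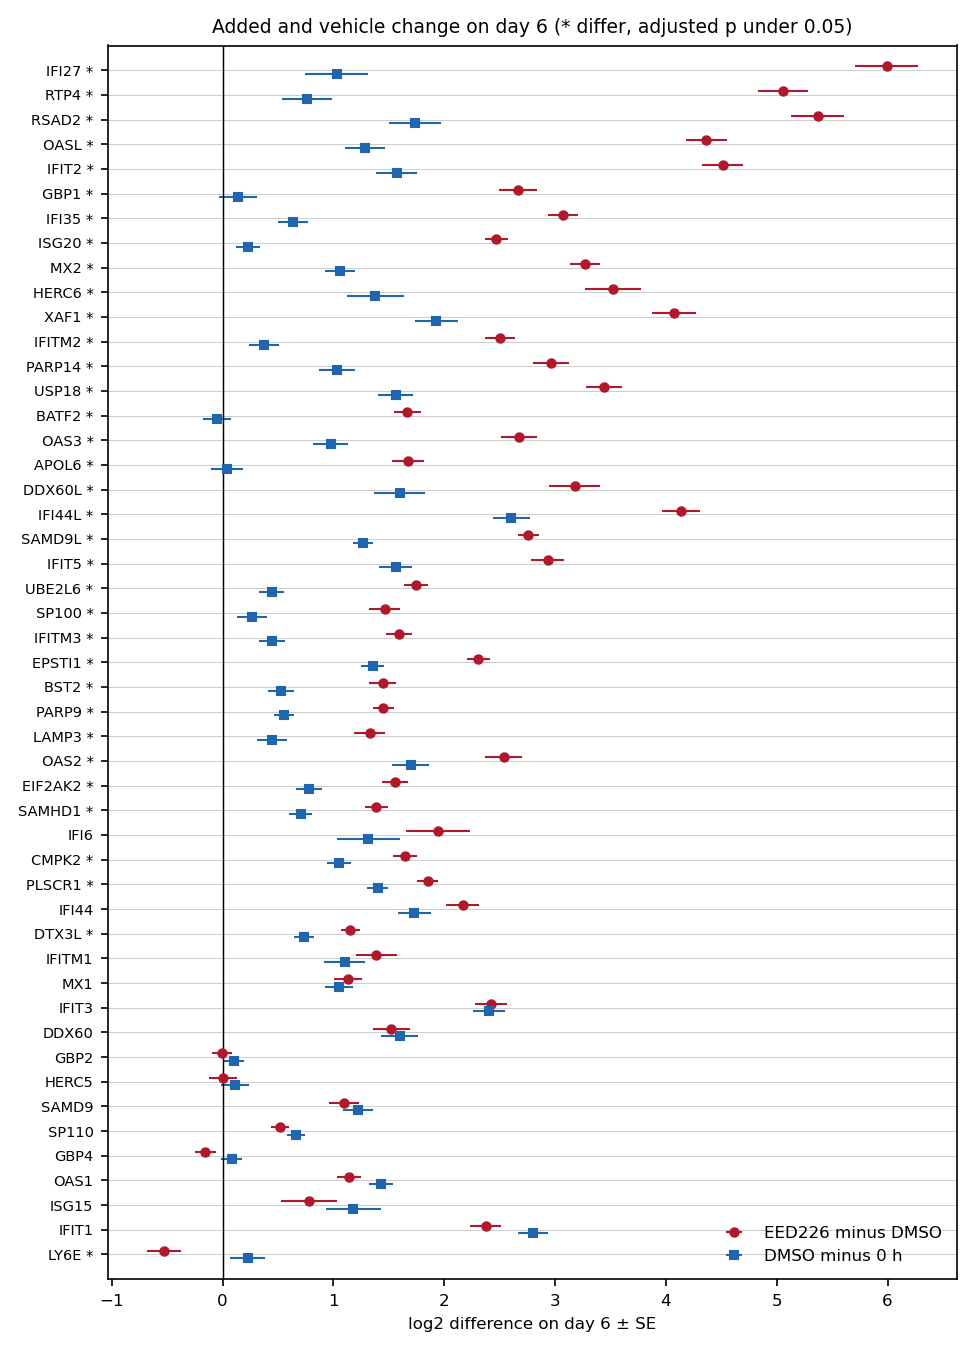
Log2 difference on day 6 with its SE for each of the 49 genes, EED226 minus DMSO in red circles and DMSO minus 0 h in blue squares, ordered by the difference between both; a star marks genes where they differ at an adjusted p under 0.05. The red circles run to 5.99 for IFI27 and the blue squares to 2.80 for IFIT1, and the 2 marks lie close together for IFIT3, MX1, DDX60, SAMD9 and SP110.

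How the EED226 difference itself grew was tested between neighbouring times, each with its own EED226 and DMSO arrays. Between days 1 and 2 it grew for 23 members, against 0.541% of all genes, and between days 2 and 3 for 11, against 0.47%. Between days 3 and 6 it grew for 13, against 14.2%. The step from day 1 to day 2 was largest in RSAD2, IFIT2 and IFI27, and the step from day 3 to day 6 in GBP1 (1.55 ± 0.24), IFI27 (1.42 ± 0.40) and BATF2 (1.31 ± 0.18). The mean DMSO levels of GBP1 and BATF2 on both days, and that of GBP1 with EED226 on day 3, were below the array medians, where differences are compressed, so their order against brighter genes is not firm. IFIT1 and IFIT3 did not pass the test for that last step, with -0.29 ± 0.19 and -0.03 ± 0.20. The genes also differed in how much of their day 6 difference was there on day 2, as a share of log2 differences, which is given as a description. It was 88.1% for IFIT1, 82% for OAS1, 77.3% for IFIT3, 75.8% for DDX60 and 75.7% for SAMD9. It was 51.8% for RSAD2, 47.3% for RTP4, 36.7% for IFI27 and 35.2% for ISG20. For GBP1, BATF2 and APOL6 the day 2 difference had not passed the test, and no share is given for these dim genes. The count of 11 between days 2 and 3 was 7 without EED226 day 3 replicate 3.

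The other genes of the pathway were counted from lists of their own. Of 18 interferon ligands measured, IFNB1, which encodes interferon beta, was higher on day 6, and 3 dim ones, IFNA7, IFNA10 and IFNA21, were lower, against 23.7% of all genes higher and 27.3% lower. IFNB1 stood at 6.57, 6.58 and 7.36 in EED226 cells on day 6, against 2.89, 3.16 and 3.18 in DMSO cells and 2.66, 3.33 and 2.70 at 0 h. Its difference was 0.14 ± 0.20 on day 1, 0.61 ± 0.20 on day 2 (adjusted p = 0.0447), 2.59 ± 0.20 on day 3 and 3.76 ± 0.20 on day 6, and on day 2 its EED226 mean of 3.76 was still below the array medians. In DMSO 0 of the 18 ligands passed the test over 0 h on day 6, and 1 had an unadjusted p under 0.05. All 18 had means of 4.01 or less in both groups, below the lowest array median, so a change in these ligands may not be measurable here. IFNB1's vehicle difference at that time was 0.18 ± 0.20.

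Of 9 receptor and kinase genes, 8 were higher with EED226 on day 6 (23.7% of all genes) and 0 in DMSO over 0 h (0.829% of all genes; 1 higher and 1 lower at an unadjusted p under 0.05). Among the 8 were the kinase gene JAK1 (2.02 ± 0.11), the interferon alpha and beta receptor gene IFNAR1 (1.17 ± 0.10) and the interferon lambda receptor gene IFNLR1 (3.11 ± 0.30). Of 7 measured genes of ISGF3 and the IRF family, 5 were higher and 1 lower with EED226, and 3 were higher in DMSO, against the same shares of all genes and 27.3% lower with EED226. IRF7, the factor that amplifies interferon production, and IRF9 rose in both settings. Their gains were 1.95 ± 0.12 and 1.73 ± 0.09 with EED226 and 1.62 ± 0.12 and 0.85 ± 0.09 in DMSO. IRF1, a factor typical of interferon gamma, rose with EED226 (2.73 ± 0.13) and had a vehicle difference of -0.16 ± 0.13 on day 6. Its DMSO levels on that day were 5.25, 5.35 and, on replicate 3, 4.61, against a mean of 5.22 at 0 h. Its DMSO mean was 5.43 on day 2 and 5.60 on day 3. Of 9 negative regulators, SOCS1, an inhibitor of JAK kinases (2.83 ± 0.18), and PIAS1, a SUMO ligase (0.49 ± 0.13), were higher with EED226. PTPN6, SOCS3 and IRF2BP1 were lower. These counts are near the shares of all genes, and in DMSO 0 passed the test (1 higher at an unadjusted p under 0.05). DMSO day 6 replicate 3 was the lowest of its group for PIAS1 (7.94, against 8.59 and 8.51), SOCS1 (5.25, against 6.17 and 6.07) and JAK1 (7.63, against 8.22 and 8.16). It was also the lowest for IFNAR1, IFNLR1, IRF7 and IRF9. A low DMSO value enlarges the difference with EED226, and the differences of these genes without this array are not given.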

How the data were processed

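Total RNA of each culture was amplified from its 3′ ends and hybridised to 1 Affymetrix array. The authors deposited log2 levels per probe set from RMA, per the submitters' processing notes; the version of RMA is not given in the sources used here. RMA compresses differences near background and near the top of the scale. Of 54675 probe sets, 62 were controls, and 41097 had 1 symbol, 1801 several and 11777 none in the platform annotation; the brightest of each gene's probe sets was kept. Groups came from the sample titles. Differences were tested two-sided with limma 3.58.1 in R 4.3.3 (lmFit, eBayes; 1 mean per group, 33 arrays, 22 residual degrees of freedom), with p-values adjusted over 19775 genes and a threshold of 0.05. Intervals are at 95%, differences carry SE and levels SD. The number of arrays limits the precision. The procedure was tested on simulated data. Members, lists and motifs were chosen with earlier results of these data known. Values in full were given for the member with the largest change of each role group, the extremes, and every member not past the test; further members given in full were chosen after their values were seen. Of 49 members, 27 had 47 other probe sets, and 2 of these, dim ones of HERC6 and GBP2, had the opposite sign on day 6. Probe sets that can match several transcripts (suffixes x_at and s_at) measured 5 and 11 members. Same-numbered arrays of EED226 and DMSO correlated in their deviations from the group means at above 0.1 in every pair at 8 h (0.199 to 0.318), on day 1 (0.110 to 0.358) and day 2 (0.151 to 0.169), and not on day 3 or 6 or between DMSO and 0 h; this pairing comes from the data, not the labels. The series design text speaks of an EZH2 inhibitor and the treatment protocol also names EI1, while all treated titles name EED226; the compound was taken from the titles.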

Additional observations from a re-analysis of the deposited data

Results flagged for a closer look

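The difference between EED226 and DMSO changed between neighbouring times for these members, by limma's test of the difference of differences. From day 1 to day 2 it grew by 2.14 ± 0.34 log2 units for RSAD2, by 1.96 ± 0.26 for IFIT2 and by 1.93 ± 0.40 for IFI27 (SE, n = 3). The call for IFI27 was lost without DMSO day 1 replicate 2, DMSO day 2 replicate 2, EED226 day 1 replicate 1 or EED226 day 2 replicate 3 (adjusted p between 0.0579 and 0.0778).

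From day 2 to day 3 it grew by 2.37 ± 0.40 for IFI27, by 1.92 ± 0.32 for RTP4 and by 1.67 ± 0.34 for RSAD2. Without EED226 day 3 replicate 3 the value for RSAD2 was 1.53 (adjusted p = 0.067).

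From day 3 to day 6 it grew by 1.55 ± 0.24 for GBP1, by 1.42 ± 0.40 for IFI27 and by 1.31 ± 0.18 for BATF2. GBP1 and BATF2 had passed the test against DMSO for the first time on day 3.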

How the results depend on the processing

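No member's direction reversed past the test under any alternative run. The count of members higher with EED226 was 40 to 42 on day 2, 42 to 45 on day 3 and 42 to 45 on day 6 over all alternatives. The single call on day 1 became 0 with array medians centred, 2 with probe sets chosen on 0 h and DMSO arrays, with renewed quantile normalization, with genes above the median level only or with the replicate block, 3 with a trended robust spread or with only the arrays compared, 7 with array weights, and 0 to 1 with an array left out. These were not always the same genes: IFIT1 was not called with the mean of probe sets (adjusted p = 0.0515), where OASL was, nor with only the arrays compared (adjusted p = 0.13), where HERC6, USP18 and RTP4 were, nor with centred medians or any array left out. The 1 member lower on day 6 was 2 with the mean of probe sets, 0 with genes above the median level only, where LY6E was not tested, and 0 to 1 with an array left out. For DMSO over 0 h, only the arrays compared gave 6 members on day 1 in place of 12 and 11 on day 6 in place of 36, and arrays left out gave 7 to 13 and 30 to 38. For the added change less the vehicle change, the 2 members on day 2 became 4 with renewed quantile normalization, 5 with array weights, 1 with only the arrays compared and 0 to 2 with an array left out; the 34 on day 6 were 28 to 35 over all alternatives. The 1 lower on day 6 was 0 with genes above the median level only and with only the arrays compared, and 0 to 1 with an array left out; with array weights it was IFIT1 (-0.60, adjusted p = 0.0265) and not LY6E. The 11 members whose effect grew from day 2 to day 3 became 19 with renewed quantile normalization, 17 with a trended robust spread, 21 with array weights, 20 with only the arrays compared and 7 to 13 with an array left out. The causes were not tested.

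Scaling moved the split of all genes on day 2 with EED226, 1337 higher and 529 lower, to 1399 and 892 with renewed quantile normalization and to 1333 and 311 with centred medians, while the members' count was 41 under both. With DMSO over 0 h the split of 31 and 4 on day 1 became 20 and 0 with centred medians and 63 and 17 with quantiles, that of 141 and 35 on day 2 became 129 and 15 and 192 and 74, that of 418 and 180 on day 3 became 409 and 102 with centred medians and 492 and 383 with quantiles, and that of 164 and 177 on day 6 became 158 and 77 and 267 and 170. For the added less the vehicle change on day 6, 3701 and 2879 became 3094 and 3999 with quantiles, and for the growth from day 3 to day 6, 2802 and 2122 became 2299 and 2985. The replicate block changed no other member count by over 1.5 times. Levels below the array medians limit what can be said of GBP2, GBP4, HERC5 and the low levels of GBP1 and BATF2, and LY6E and APOL6 in DMSO were close to the medians.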
